A study of Mus musculus with 8 samples.

Results

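Small nucleolar RNAs and small Cajal body RNAs are short, stable RNAs that guide the chemical modification of other RNAs or take part in the processing of ribosomal RNA. The genes reported here were picked from the deposited expression table by symbol. A gene was a member if its symbol begins with Snora, Snord or Scarna in any letter case and its value was above 0 in 2 or more of the 8 libraries. The rule gave 109 of the 27179 genes of the table, of which 33 carried Snora symbols (H/ACA type), 67 Snord symbols (C/D type) and 9 Scarna symbols (Cajal body RNAs). Of 123 genes with such a symbol, 14 were left out, 13 of them at 0 in all 8 libraries and Snora47 with 2 reads in 1 library. Nearest to the limit among the members was Snord61, with 8 reads in 3 libraries. Symbols follow RefSeq for the mouse, and the table writes some of them in capitals, such as SNORD61.

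The study compared T cells from offspring of mice that drank cadmium during mating and pregnancy with T cells from offspring of unexposed mice. Parents of strain C.Cg-Foxp3tm2Tch/J received 10 ppm CdCl2 or unspiked drinking water, and the offspring were examined at 8 weeks of age. Splenic CD4+ T cells were sequenced either unstimulated (0 h) or after 16 h with anti-CD3/CD28 beads, with 2 libraries in each of the 4 groups. According to the paper, conventional T cells negative for CD25 were sorted, and the libraries were made with an mRNA kit and amplified by PCR. That the kit selects poly(A) RNA is read from its name and is not stated. Replicates are numbered 6 and 7 in every group, and values are given in that order throughout. Neither the paper nor the labels state the sex of the animals, whether cells were pooled, the strandedness of counting, or how reads that map to several places or overlap several genes were counted. The paper counts each litter as a separate exposure and replicate, but neither it nor the labels state which litter or animal a library came from. The p-values measure the spread between libraries. Since cells were sequenced in bulk, fewer expressing cells and less RNA per cell cannot be told apart.

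Library labels were checked against cell type markers. All 6 T cell markers were present, with summed levels of 2007 and 1961 RPKM in unstimulated control cells, 1268 and 1279 in stimulated control cells, 1865 and 1914 in unstimulated Cd cells, and 1305 and 1291 in stimulated Cd cells. With stimulation 5 of the 6 were lower in each exposure, and Cd28 was higher (0.48 and 0.40, below the 2-fold limit). Limma called Cd3g in control offspring (-1.16) and not in Cd offspring (-0.97), with a difference of 0.19 (adjusted p 0.49). Markers of other cells summed to between 22.5 and 25.8 RPKM in each library, and 10 of the 15 in the table were below 1 RPKM in every library. The sum held markers that moved in opposite directions. With stimulation, limma called Klrb1c (-3.83 in control and -3.62 in Cd offspring) and Itgam (-2.27 and -2.03) lower, while Foxp3 (0.41 and 0.68) and Cd79a (0.41 and 0.57) were higher in all stimulated libraries and below the 2-fold limit. Whether the mix of cells or the RNA per cell differed between states was not tested.

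H/ACA RNAs guide the conversion of uridine to pseudouridine, and C/D RNAs guide the methylation of ribose, each bound to its own set of core proteins. Small Cajal body RNAs guide the same modifications in spliceosomal RNAs. Most mammalian genes of these classes lie in introns of host genes and are released from the spliced intron by trimming from both ends. The mature RNAs have no poly(A) tail, and the counts cannot tell apart a read from the mature small RNA and a read from an unspliced host transcript that still held it.

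Totals recovered from the table were 17985243 and 16299663 reads in unstimulated control cells, 15542732 and 19449725 in stimulated control cells, 19419451 and 20538306 in unstimulated Cd cells, and 21987821 and 25486791 in stimulated Cd cells. Members were 28 to 275 bases long with a median of 82, against a median of 2494 over the 12605 genes tested. The median was 118 bases for Snora members, 68 for Snord members and 118 for Scarna members. A member held a median of 21.25 reads per library, against 521 over all genes tested, although the median level was similar, at 12.7 against 11.2 RPKM. A count of 21 reads has an exact Poisson 95% interval of 13.0 to 32.1 reads. Such intervals cover counting error only, since the libraries were amplified by PCR without molecular identifiers. In total 82 members had a mean of at least 10 reads per library and 27 had fewer, and 99 members were above 0 in all 8 libraries. All 109 members passed the filter for testing.

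The counted length was the RefSeq span for 109 of 109 members. GENCODE gives a longer span for 87 of them, the same for 13 and a shorter one for 9, with a median difference of 12 bases. The largest difference was that of Scarna2, counted over 61 bases and annotated by GENCODE with 414. A host gene on the same strand was found for 102 members, protein-coding for 83 and a long non-coding RNA (lncRNA) for 19. The 75 hosts included 20 that held more than 1 member, and 31 members lay in ribosomal protein genes. Of members with a host, 93 lay in an intron and 7 overlapped an exon, among them Snord22, Snora73a and Snord88a. For Snora17 and Snora43 the host exons were not in the annotation used. The 7 members without a host included Scarna2, Scarna17, Snord104 and Snora74a. A further source of doubt was sequence. Among 107 members with a sequence of at most 300 bases, 27 had a copy of at least 90% identity elsewhere in the annotation, 17 of them Snora, 9 Snord and 1 Scarna, so that reads of these members are uncertain in origin. For 6 members, Snord47 and Snord87 among them, a gene on the opposite strand overlapped the counted span.

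Reads were also summed over each class. Per 1000000 reads on genes, Snora members held 76.3 and 74.8 reads in unstimulated control cells, 74.9 and 79.3 in stimulated control cells, 80.6 and 77.3 in unstimulated Cd cells, and 72.6 and 65.8 in stimulated Cd cells. The Snora sums were lowest in stimulated Cd cells, whose values lay below those of every other group, and the range of stimulated control cells overlapped those of both unstimulated groups. Snord members held 92.8 and 96.1 reads on the same scale in unstimulated control cells, 108 and 109 after stimulation, 90.5 and 91.7 in unstimulated Cd cells, and 105 and 97.9 after stimulation. Stimulated libraries thus held more Snord reads on this scale than unstimulated ones in 4 of 4 cases, without overlap between the groups of either exposure. Scarna members held 11.0 and 15.6 in unstimulated control cells, 12.2 and 13.7 after stimulation, 15.5 and 12.9 in unstimulated Cd cells, and 11.6 and 10.4 after stimulation. The Scarna sums of control cells overlapped, and those of Cd cells were lower after stimulation. A few members carried much of each sum, as 6 Snora members held 49.1% of the Snora reads, 6 Snord members 34.4% of the Snord reads, and Scarna2 alone 52.6% of the Scarna reads. Snord96a alone held 12.9% of the Snord reads, and its own level was higher in all stimulated libraries. Snord sums without Snord96a were not taken. The class sums were not tested.

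**Figure D1:**
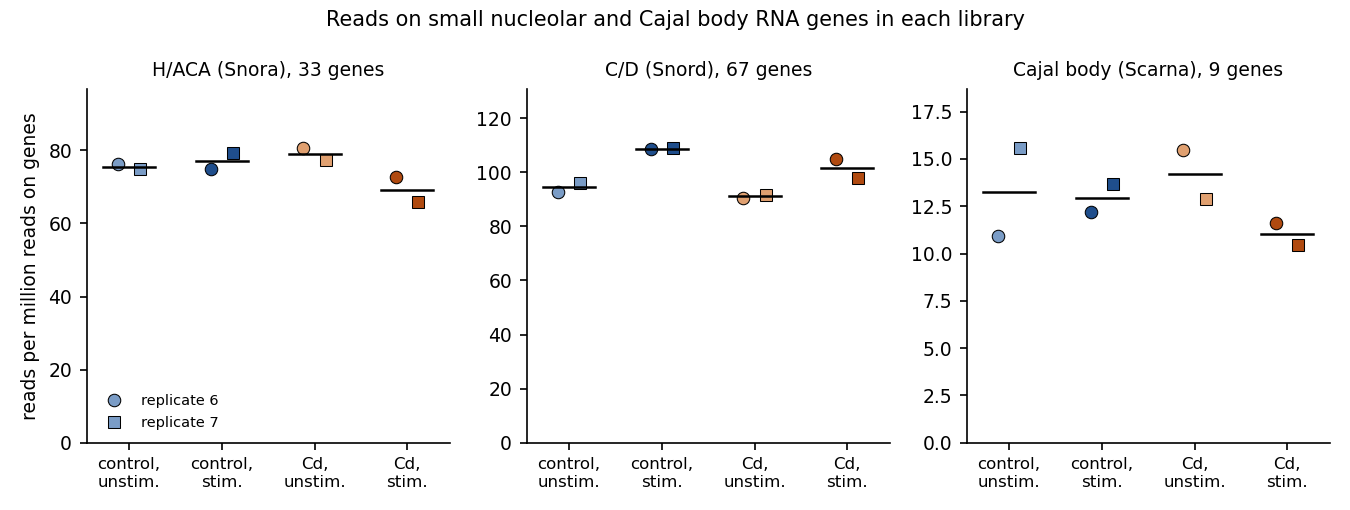
Reads per 1000000 reads on genes, summed over the Snora, Snord and Scarna members, for each of the 8 libraries (points) in the 4 groups. Snord sums of stimulated libraries lie above those of unstimulated libraries in both exposures.

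Stimulation was compared with no stimulation first in control offspring. By limma, 19 of the 109 members were called (17.4%), 10 higher and 9 lower, against 18.7% of all genes tested, 11.5% higher and 7.17% lower. The libraries of both groups did not overlap for 45 members higher and 25 lower after stimulation, against 83.1% of all genes tested. Snora members gave 4 calls higher and 2 lower, Snord members 6 higher and 7 lower, and Scarna members 0. Of the 9 Scarna members 2 had an unadjusted p under 0.05 (22.2%, against 67.8% of all genes tested), and voom called 0. The median log2 fold change was 0.46 for Snora, 0.18 for Snord and -0.11 for Scarna members, beside 0.07 for all genes tested. Both Snora and Snord medians stayed above 0 under each scaling tried. Among 317 other genes in the length range of the members, the median was -0.02, and 33 were called. Without Snord61, which had 0 reads in stimulated control cells, the Snord median was 0.22. Its reads in control offspring were too few for a bound on the fold change.

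In Cd offspring the same comparison called 23 members (21.1%), 13 higher and 10 lower, against 18.6% of all genes tested, 11.4% higher and 7.24% lower. The libraries did not overlap for 40 members higher and 29 lower after stimulation, against 83.1% of all genes tested. Snora members gave 4 calls higher and 2 lower, Snord members 9 higher and 6 lower, and Scarna members 0 higher and 2 lower. Of these 9 Scarna members 2 had an unadjusted p under 0.05 (22.2%, against 69.0% of all genes tested), and voom called 0 higher and 1 lower. Median log2 fold changes were 0.23 for Snora, 0.13 for Snord and -0.40 for Scarna members, beside 0.05 for all genes tested and -0.40 for the other genes of the same length range, of which 40 were called. The Snord median was close to 0 after quantile normalization (0.0020). With Snord61 set to its bound, at a floor of 3 reads over stimulated Cd cells, the Snord median stayed at 0.13. Snord61, a member only through its reads in unstimulated Cd cells, is among the 10 called lower and the 29 lower without overlap.

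Among H/ACA members, Snora28, a guide for 18S rRNA in an intron of Eif5, had the most reads. Its levels were 143 and 129 RPKM in unstimulated control cells, 48.0 and 51.4 after stimulation, 159 and 136 in unstimulated Cd cells, and 45.1 and 47.0 after stimulation. All 4 unstimulated libraries were high and all 4 stimulated ones low, without overlap. Snora28 fell with stimulation by 1.45 on the log2 scale in control offspring (SE 0.09, adjusted p 5.07e-06, lower in 2 of 2 libraries). In Cd offspring it fell by 1.67 (SE 0.09, adjusted p 2.78e-06, lower in 2 of 2 libraries), and the difference between the responses was -0.23 with an adjusted p of 0.542. Its host Eif5 had log2 fold changes of 0.02 and -0.14 in the same comparisons.

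Snora31 lies in an intron of Tpt1. It measured 51.6 and 43.3 RPKM in unstimulated control cells, 17.2 and 21.6 after stimulation, 63.9 and 60.0 in unstimulated Cd cells, and 20.3 and 22.4 after stimulation. Unstimulated libraries were again all above stimulated ones. The decrease was -1.29 in control offspring (SE 0.12, adjusted p 6.08e-05, 2 of 2 libraries) and -1.53 in Cd offspring (SE 0.12, adjusted p 2.53e-05, 2 of 2 libraries). The host Tpt1 was called lower with stimulation in control offspring (-1.03, adjusted p 1.9e-06) and had a log2 fold change of 0.14 in Cd offspring. For Tpt1 the difference between the responses was called (1.17, adjusted p 0.00436), and for Snora31 it was -0.24 with an adjusted p of 0.632.

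Snora17 and Snora43 both lie in the lncRNA gene Snhg7. Snora17 was at 5.48 and 6.97 RPKM in unstimulated control cells, 21.4 and 21.8 after stimulation, 5.46 and 7.38 in unstimulated Cd cells, and 21.4 and 21.7 after stimulation. Every stimulated library was at about the same high level, and every unstimulated one was low. The increase was 1.79 in control offspring (SE 0.15, adjusted p 3.49e-05, 2 of 2 libraries) and 1.75 in Cd offspring (SE 0.15, adjusted p 4.06e-05, 2 of 2 libraries). Snhg7 itself was called higher in both (1.18 and 1.35). Snora17 has a copy of 92.4% identity, Gm25617. For Snora43 the reads were 3 and 5 in unstimulated control cells, 14 and 34 after stimulation, 13 and 5 in unstimulated Cd cells, and 34 and 25 after stimulation. Stimulated libraries were higher than unstimulated ones of the same exposure, with wide spread inside each group. Snora43 was called in control offspring (2.40, SE 0.53, adjusted p 0.00493, 2 of 2 libraries) and not in Cd offspring (1.57, adjusted p 0.0311), and the difference was -0.83 with an adjusted p of 0.702. The control call ended without stimulated replicate 7 (1.93), unstimulated replicate 6 (1.99) or unstimulated replicate 7 (2.81), and without the trend in the prior.

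Snora73a (U17), which takes part in 18S rRNA processing, overlaps an exon of the lncRNA gene Snhg3. It measured 7.87 and 7.48 RPKM in unstimulated control cells, 22.6 and 20.6 after stimulation, 10.0 and 4.04 in unstimulated Cd cells, and 21.1 and 15.7 after stimulation. The groups of each exposure did not overlap, with stimulated libraries higher. Log2 fold changes were 1.48 in control offspring (SE 0.36, adjusted p 0.00823, 2 of 2 libraries) and 1.50 in Cd offspring (SE 0.36, adjusted p 0.00769, 2 of 2 libraries). Of 8 fits that each left out 1 library, 2 kept the control call and 1 kept the Cd call. The control call ended without either control library of either state (1.41, 1.55, 1.51 and 1.44, for stimulated 6 and 7 and unstimulated 6 and 7) or without stimulated Cd replicate 6 or 7 (1.48 for each). The Cd call ended without unstimulated Cd replicate 7 (0.85), without stimulated Cd replicate 6 (1.29) or 7 (1.71), or without any of the 4 control libraries (1.50 for each), and without unstimulated Cd replicate 6 the value was 2.14. Both calls also ended without the filter, without the trend and after quantile normalization. The Cd call of Snora73a ended as well with only the libraries of the comparison. Its copy Snora73b (96.6% identity) was at 0 in all libraries.

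Snora74a, with no host, held 4 and 5 reads in unstimulated control cells, 26 and 24 after stimulation, 1 and 11 in unstimulated Cd cells, and 31 and 20 after stimulation. Stimulated libraries were higher in both exposures, without overlap. It was not called in control offspring (2.37, SE 0.82, adjusted p 0.036) or in Cd offspring (2.43, SE 0.82, adjusted p 0.0324), and the Cd value was 0.95 without unstimulated Cd replicate 6 and 3.91 without replicate 7. With a pseudocount of 1 the values were 1.83 and 1.55. Voom called it in both exposures. Limma called it in control offspring with a pseudocount of 1, with only the libraries of the comparison and without either unstimulated Cd library, and in Cd offspring without unstimulated Cd replicate 7. Other abundant H/ACA members had smaller responses. Snora65, a 28S rRNA guide in Rpl12, measured 46.2 and 44.7 RPKM in unstimulated control cells, 69.2 and 71.5 after stimulation, 49.7 and 48.7 in unstimulated Cd cells, and 65.1 and 68.8 after stimulation. It was higher in all stimulated libraries, but below the 2-fold limit (0.63, adjusted p 2.06e-05 in control and 0.44, adjusted p 0.000132 in Cd offspring). Snora81, a 28S rRNA guide in Eif4a2, had log2 fold changes of -0.29 (adjusted p 0.218) and -0.61 (adjusted p 0.0225). Snora52, a 28S rRNA guide in Rplp2, held between 21.1 and 24.7 RPKM in all 8 libraries, with log2 fold changes of 0.05 and -0.11. Snora75 lies in Ncl, whose mRNA was called higher with stimulation (1.71 and 1.78). Snora75 itself had values of 36.4 and 42.3 RPKM in unstimulated control cells, 23.8 and 30.1 after stimulation, 43.9 and 31.9 in unstimulated Cd cells, and 26.3 and 28.8 after stimulation. It was lower in stimulated libraries and not called (-0.55, adjusted p 0.0221 and -0.44, adjusted p 0.0482). Snora81, Snora65 and Snora75 have copies of 98.9, 98.5 and 93.9% identity.

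Turning to C/D members, the U14 genes, which take part in 18S rRNA processing, were lower after stimulation. Snord14c, Snord14d and Snord14e lie in introns of Hspa8, and Snord14a in Rps13. Snord14c measured 19.8 and 21.9 RPKM in unstimulated control cells, 5.18 and 5.91 after stimulation, 16.6 and 24.6 in unstimulated Cd cells, and 4.18 and 5.41 after stimulation. All unstimulated libraries were above all stimulated ones. It fell by 1.89 in control offspring (SE 0.20, adjusted p 9.21e-05, 2 of 2 libraries) and by 2.06 in Cd offspring (SE 0.20, adjusted p 5.96e-05, 2 of 2 libraries). Snord14d measured 29.4 and 32.4 RPKM in unstimulated control cells, 8.87 and 12.4 after stimulation, 28.4 and 33.6 in unstimulated Cd cells, and 11.5 and 7.67 after stimulation, with log2 fold changes of -1.55 (adjusted p 0.00045) and -1.71 (adjusted p 0.000271). For Snord14e the levels were 33.0 and 31.7 RPKM in unstimulated control cells, 10.6 and 12.4 after stimulation, 28.3 and 39.6 in unstimulated Cd cells, and 14.5 and 11.6 after stimulation, with changes of -1.49 (adjusted p 0.000156) and -1.36 (adjusted p 0.000255). For both genes the groups did not overlap. Snord14c and Snord14d share 97.7% of their sequence, so their reads may have been exchanged, while Snord14e shares 78.9% with Snord14c. Hspa8 had log2 fold changes of 0.55 and 0.47. Snord14a measured 49.8 and 50.8 RPKM in unstimulated control cells, 23.7 and 27.2 after stimulation, 58.6 and 55.4 in unstimulated Cd cells, and 25.6 and 24.4 after stimulation. All 4 stimulated libraries were lower. Its log2 fold change of -0.99 in control offspring (adjusted p 1.63e-05) was just inside the 2-fold limit, and that of -1.19 in Cd offspring was called (SE 0.07, adjusted p 6.56e-06, 2 of 2 libraries), with a difference of -0.20 (adjusted p 0.532).

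**Figure D2:**
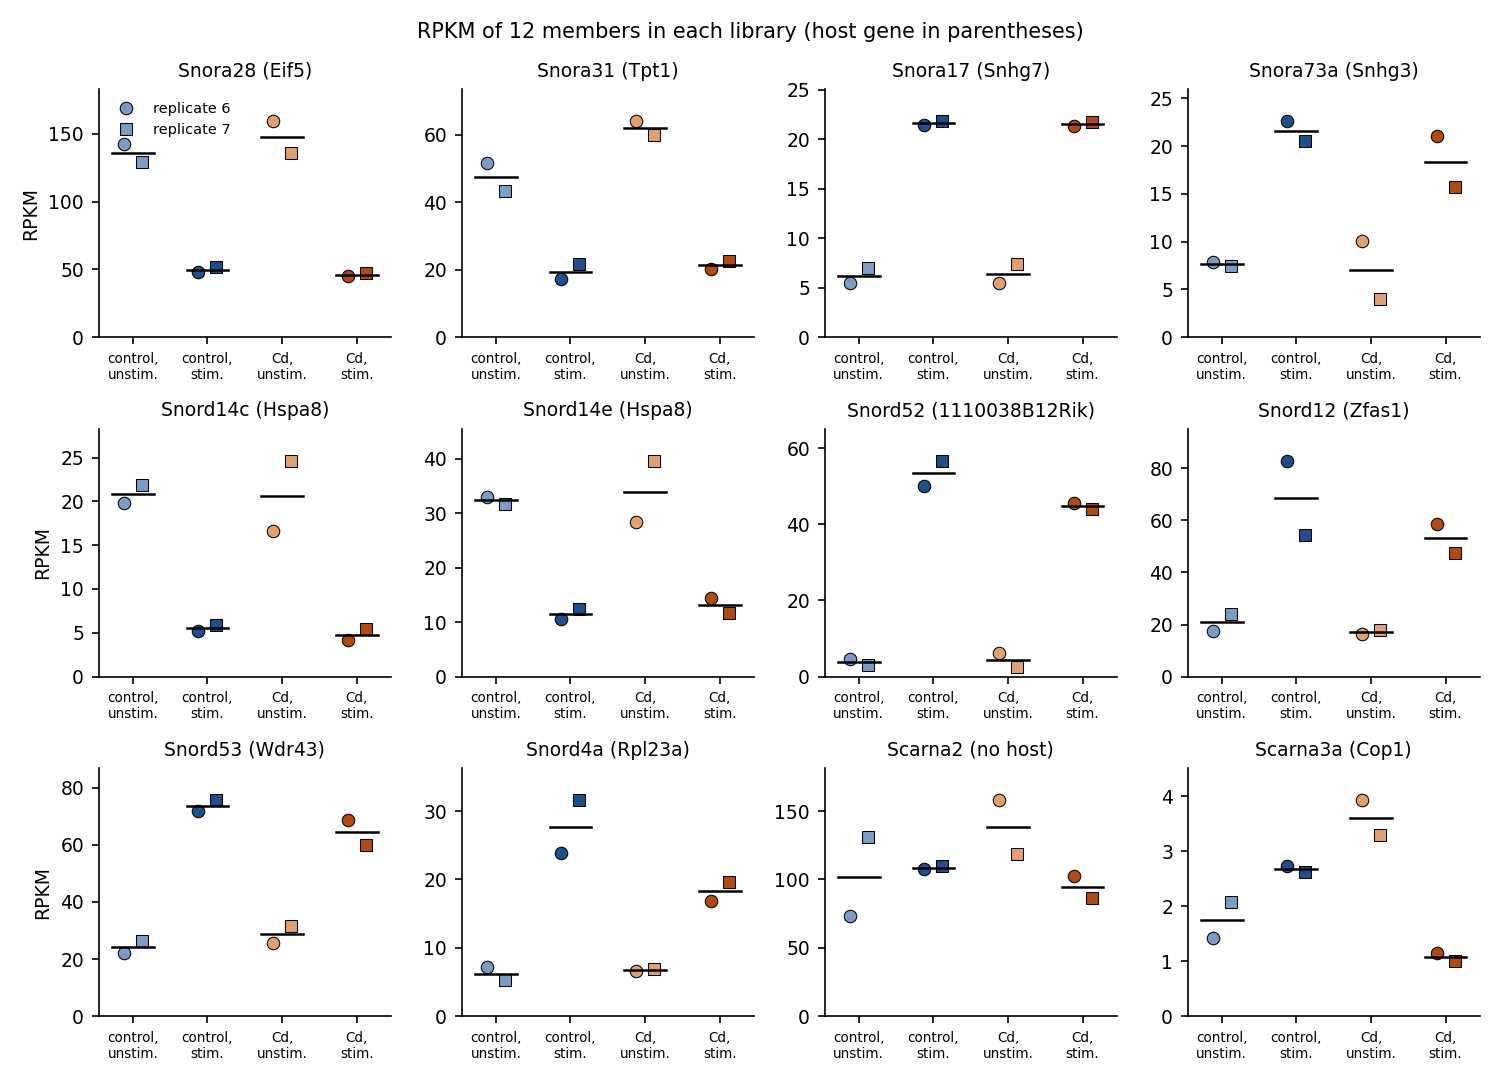
Level in RPKM of 12 members in each of the 8 libraries (points), by group. Snora28, Snora31 and the Snord14 genes are lower, and Snora17, Snord52, Snord12 and Snord53 higher, in stimulated libraries of both exposures.

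The largest increase of a member with at least 10 reads was that of Snord52, in an intron of the lncRNA gene 1110038B12Rik. It held 5 and 3 reads in unstimulated control cells, 46 and 65 after stimulation, 7 and 3 in unstimulated Cd cells, and 59 and 66 after stimulation. All stimulated libraries were far above all unstimulated ones. In RPKM these were 4.71 and 3.12, 50.2 and 56.6, 6.11 and 2.48, and 45.5 and 43.9. The log2 fold change was 3.76 in control offspring (SE 0.37, adjusted p 7.10e-05, 2 of 2 libraries) and 3.48 in Cd offspring (SE 0.37, adjusted p 0.000109, 2 of 2 libraries). Without unstimulated Cd replicate 6 the latter was 4.12, and without replicate 7 it was 2.85, called in both cases. The host rose by 2.41 and 2.35. Snord12, in the lncRNA gene Zfas1, measured 17.7 and 24.2 RPKM in unstimulated control cells, 82.9 and 54.5 after stimulation, 16.4 and 17.7 in unstimulated Cd cells, and 58.6 and 47.6 after stimulation. Every stimulated library was higher. The changes of 1.70 (SE 0.22, adjusted p 0.000292) and 1.63 (SE 0.22, adjusted p 0.000372) stood beside 0.64 and 0.84 for Zfas1.

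Snord53, in Wdr43, was at 22.1 and 26.2 RPKM in unstimulated control cells, 71.9 and 75.6 after stimulation, 25.7 and 31.5 in unstimulated Cd cells, and 68.9 and 60.0 after stimulation. The stimulated libraries were all higher, with changes of 1.61 (SE 0.12, adjusted p 1.68e-05, 2 of 2 libraries) and 1.17 (SE 0.12, adjusted p 9.11e-05, 2 of 2 libraries). Wdr43 was called higher as well (1.23 and 1.14). Snord92, in another intron of the same host, was at 4.02 and 15.5 RPKM in unstimulated control cells, 9.30 and 14.2 after stimulation, 11.8 and 13.5 in unstimulated Cd cells, and 4.38 and 9.45 after stimulation. Its control groups overlapped, and it was not called (0.53 and -0.96). The control value changed sign with the library left out, at -0.43 without unstimulated control replicate 6 and 1.50 without replicate 7, and the difference of -1.49 became -0.53 and -2.45. Snord4a, in Rpl23a, measured 7.15 and 5.26 RPKM in unstimulated control cells, 23.9 and 31.6 after stimulation, 6.62 and 6.96 in unstimulated Cd cells, and 16.9 and 19.6 after stimulation. It was higher in all stimulated libraries (2.15, SE 0.17, adjusted p 2.60e-05 in control and 1.41, SE 0.17, adjusted p 0.000247 in Cd offspring). Its host had a log2 fold change of -0.22 in control offspring and was called higher in Cd offspring (1.30). The difference between the responses was called for Rpl23a (1.53, adjusted p 0.0169) and not for Snord4a (-0.73, adjusted p 0.372).

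The most abundant C/D member was Snord96a, in Rack1. It measured 118 and 123 RPKM in unstimulated control cells, 202 and 198 after stimulation, 126 and 123 in unstimulated Cd cells, and 209 and 208 after stimulation. Stimulated libraries were higher throughout, with a fold below the 2-fold limit (0.73, adjusted p 6.31e-06 and 0.74, adjusted p 6.21e-06). Rack1 had log2 fold changes of -0.06 and -0.14. Snord2, in Eif4a2, changed in the other direction within the limit (-0.58, adjusted p 0.00485 and -0.63, adjusted p 0.00335), as did its host (-0.54 and -0.72). Snord22 (U22), over an exon of Snhg1, had log2 fold changes of -0.28 (adjusted p 0.0764) and -0.17 (adjusted p 0.246).

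Several C/D members were called in 1 exposure only, and the difference between the responses was not called for any of them. Snord35b measured 62.6 and 65.6 RPKM in unstimulated control cells, 32.5 and 25.4 after stimulation, 44.4 and 49.8 in unstimulated Cd cells, and 26.7 and 28.4 after stimulation. It was lower in all stimulated libraries, called in control offspring (-1.15, SE 0.11, adjusted p 7.33e-05) and below the 2-fold limit in Cd offspring (-0.77, adjusted p 0.00066), with a difference of 0.38 (adjusted p 0.466). Without stimulated control replicate 7 its control value was -0.98 and not called. Snord37, in Eef2, measured 22.0 and 23.2 RPKM in unstimulated control cells, 3.64 and 8.73 after stimulation, 11.7 and 7.35 in unstimulated Cd cells, and 12.0 and 6.66 after stimulation. Only unstimulated control cells were high, and the Cd groups overlapped. The control change of -1.98 was called (SE 0.43, adjusted p 0.0047, 2 of 2 libraries), the Cd change was -0.05, and the difference was 1.93 (SE 0.61, adjusted p 0.345). That difference was 1.31 without stimulated control replicate 6 and 2.55 without stimulated control replicate 7. The control call ended without stimulated replicate 6 (-1.36) or unstimulated replicate 6 (-2.02) or 7 (-1.94), and without stimulated replicate 7 the value was -2.60. It also ended without the trend in the prior. Snord88a and Snord88c lie in the same host, 2410002F23Rik, and share 94.4% of their sequence, so their reads may have been exchanged. The host had log2 fold changes of 0.73 in control and 0.71 in Cd offspring. Snord88a held 9 and 12 reads in unstimulated control cells, 4 and 4 after stimulation, 6 and 4 in unstimulated Cd cells, and 6 and 6 after stimulation. It was high in unstimulated control cells alone (-1.37, SE 0.26, adjusted p 0.00221 in control and 0.04 in Cd offspring), with a difference of 1.42 (adjusted p 0.236). Its call ended without stimulated control replicate 7 (-1.22) or unstimulated control replicate 7 (-1.10), and it was not called by voom.

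Snord49b lies in 2410006H16Rik. Its levels were 8.83 and 7.79 RPKM in unstimulated control cells, 11.2 and 10.6 after stimulation, 2.45 and 5.41 in unstimulated Cd cells, and 18.0 and 11.8 after stimulation. The stimulated libraries were higher in both exposures, by 0.39 in control (adjusted p 0.34) and 1.97 in Cd offspring (SE 0.34, adjusted p 0.00145, 2 of 2 libraries), with a difference of 1.58 (SE 0.48, adjusted p 0.323). Without stimulated Cd replicate 6 the Cd value was 1.67 and not called. Snord32a, in Rpl13a, measured 6.86 and 9.09 RPKM in unstimulated control cells, 15.9 and 20.3 after stimulation, 4.45 and 1.80 in unstimulated Cd cells, and 12.4 and 13.1 after stimulation. Stimulated libraries were higher throughout (1.18, adjusted p 0.0226 in control and 2.12, SE 0.36, adjusted p 0.00139 in Cd offspring), and the difference was 0.95 (adjusted p 0.547). The Cd value was 2.75 without unstimulated Cd replicate 6 and 1.49 without replicate 7, called in both cases. Snord42b, in Rpl23a, held 7 and 3 reads in unstimulated control cells, 7 and 19 after stimulation, 4 and 8 in unstimulated Cd cells, and 26 and 27 after stimulation. In RPKM the stimulated libraries were higher in both exposures, without overlap. The Cd change was 1.96 (SE 0.47, adjusted p 0.00739), the control change was 1.29 (adjusted p 0.0426), and the difference was 0.67 (adjusted p 0.725). Its Cd call ended without stimulated Cd replicate 6 (1.88) or 7 (2.04) or unstimulated Cd replicate 6 (1.51), and also with either replicate block, without the trend, without the filter and after quantile normalization. Snord87, in Snhg6, was called in both exposures (1.05, adjusted p 0.00704 and 1.49, adjusted p 0.00123), the former no longer when any 1 of the 4 control libraries was left out (0.96 to 1.14), and neither by voom. The control call also ended with median-of-ratios scaling, a pseudocount of 1 and quantile normalization, and without the filter or the trend.

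Some called members rested on very few reads. Snord23, in Nop53, held 14 and 8 reads in unstimulated control cells, 1 and 1 after stimulation, 11 and 10 in unstimulated Cd cells, and 4 and 2 after stimulation. Both unstimulated groups were higher than both stimulated ones. In control offspring 22 reads against 2 gave an 11.2-fold lower level with a 95% counting interval of 2.76 to 98.5 (adjusted p 0.000161 by limma, 2 of 2 libraries). In Cd offspring the log2 fold change was -2.04 (SE 0.37, adjusted p 0.00186), and the call ended without unstimulated Cd replicate 6 (-1.93). Snord1c, in Snhg16, held 1 and 2 reads in unstimulated control cells, 6 and 7 after stimulation, 5 and 5 in unstimulated Cd cells, and 15 and 11 after stimulation. Stimulated libraries were higher in both exposures. The control ratio of 13 reads to 3 was 4.25-fold, with an interval of 1.17 to 23.2 (adjusted p 0.00106 by limma, not called by voom), and in Cd offspring the change was 1.09 (adjusted p 0.0221), not called, with a difference of -0.97 (adjusted p 0.519). Snord1c shares 97.4% of its sequence with Snord1b. Snord61, in Rbmx, held 0 and 1 reads in unstimulated control cells, 0 and 0 after stimulation, 3 and 4 in unstimulated Cd cells, and 0 and 0 after stimulation. Reads were present almost solely in unstimulated Cd cells. It is a member only through the reads of unstimulated Cd cells, so that a lower level in the other groups follows from the rule that picked it, and its call in Cd offspring is not taken as a response. Without it the number of calls in Cd offspring was 22.

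Of the Cajal body RNAs, Scarna2, Scarna17 and Scarna9 held the most reads. Scarna2, a U2 guide with no host, measured 72.9 and 131 RPKM in unstimulated control cells, 108 and 110 after stimulation, 158 and 119 in unstimulated Cd cells, and 102 and 86.2 after stimulation. The control groups overlapped and the stimulated Cd libraries were the lower ones, with log2 fold changes of 0.15 (adjusted p 0.62) and -0.55 (adjusted p 0.0943). Scarna17 measured 57.4 and 60.4 RPKM in unstimulated control cells, 34.2 and 57.2 after stimulation, 32.4 and 22.0 in unstimulated Cd cells, and 44.0 and 32.3 after stimulation. Unstimulated control cells had the highest values and unstimulated Cd cells the lowest mean, and neither response was called (-0.41 and 0.50). Scarna9, a U2 guide in Cep295, held between 17.2 and 35.2 RPKM in all libraries (-0.20 and -0.09). Scarna3b, in Dcaf5, measured 6.28 and 5.44 RPKM in unstimulated control cells, 4.67 and 6.22 after stimulation, 9.97 and 11.4 in unstimulated Cd cells, and 1.83 and 5.38 after stimulation. Unstimulated Cd cells were high and the control groups overlapped (-0.11). It was called lower in Cd offspring (-1.72, SE 0.42, adjusted p 0.00791, 2 of 2 libraries), and the difference was -1.61 (SE 0.59, adjusted p 0.414), with -0.86 and -2.36 without stimulated Cd replicate 6 and 7. That call ended without stimulated Cd replicate 6 (-0.97), without unstimulated Cd replicate 6 (-1.82) or 7 (-1.63), or without any of the 4 control libraries (-1.72 for each), and without stimulated Cd replicate 7 the value was -2.48. It also ended without the filter, without the trend, and with only the libraries of the comparison.

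Scarna3a, in Cop1, held 3 and 4 reads in unstimulated control cells, 5 and 6 after stimulation, 9 and 8 in unstimulated Cd cells, and 3 and 3 after stimulation. Unstimulated Cd cells were highest and stimulated Cd cells lowest, with the control groups between them. In RPKM the levels were 1.41 and 2.08, 2.73 and 2.61, 3.93 and 3.30, and 1.16 and 0.998. The response was 0.61 in control offspring (SE 0.20, adjusted p 0.0297, not called) and -1.66 in Cd offspring (SE 0.20, adjusted p 0.000222, called by limma and not by voom, 2 of 2 libraries). Cop1 had log2 fold changes of 0.25 and -0.07.

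The responses of control and Cd offspring, which share no libraries, were set side by side. Over the 109 members the log2 fold changes had the same sign for 84, against 11117 of the 12605 genes tested, with a Pearson r of 0.71 and a Spearman rho of 0.70 across genes, which are not independent replicates, beside an r of 0.91 over all genes tested. Calls were shared by 14 members, all in the same direction, 8 higher and 6 lower. These were 73.7% of the control calls and 60.9% of the Cd calls, against 80.8% and 81.0% over all genes tested. In control offspring alone 5 members were called and in Cd offspring alone 9, Snord61 among them. Without Snord61 these were 8, and the shared calls 63.6% of the Cd calls. Over the 82 members with at least 10 reads r was 0.83. By class, r was 0.86 over 33 Snora, 0.71 over 67 Snord and 0.37 over 9 Scarna members.

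**Figure D3:**
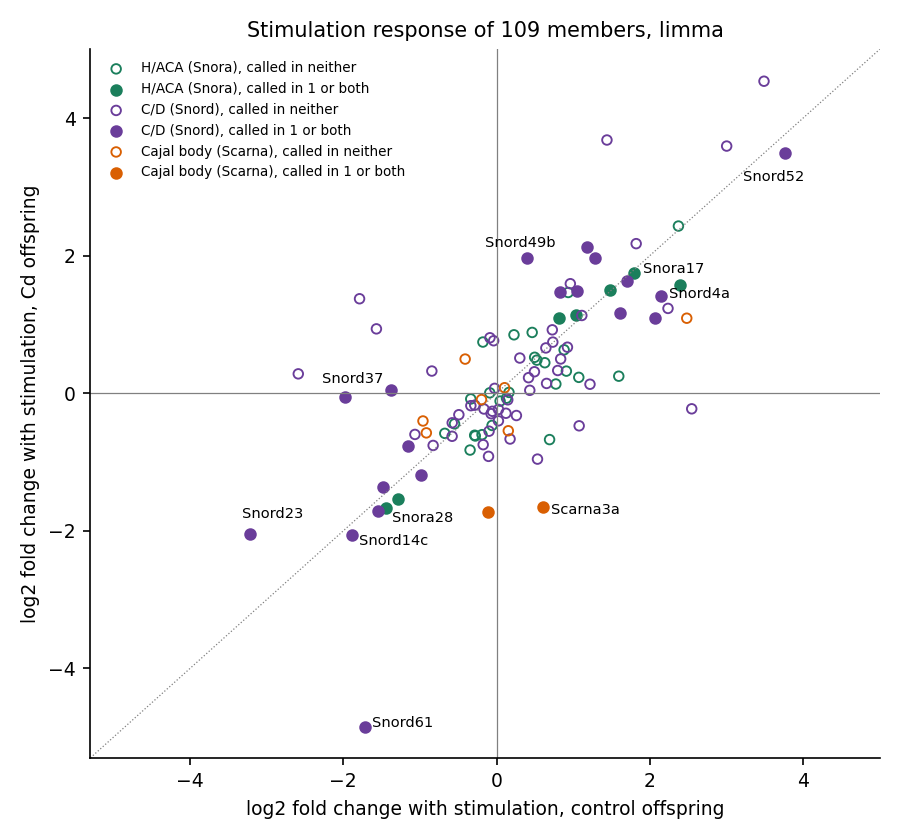
Log2 fold change with stimulation in control offspring (horizontal) against that in Cd offspring (vertical) for the 109 members, coloured by class, with members called in either marked. The sign is the same in both for 84 members, and values of members with few reads, such as Snord61, are fitted values.

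Members were then set beside their hosts. Members in lncRNA hosts had a median log2 fold change with stimulation of 1.05 in control offspring, with 7 of 19 called higher and 0 lower (all genes tested 11.5% and 7.17%), and of 1.09 in Cd offspring, with 6 called higher and 0 lower (all genes tested 11.4% and 7.24%). Members in protein-coding hosts had medians of 0.05, with 3 of 83 called higher and 9 lower, and -0.11, with 7 called higher and 10 lower, or 9 lower without Snord61. By voom the members in lncRNA hosts gave 6 calls higher and 0 lower in each exposure, and at an unadjusted p under 0.05 limma had 12 of the 19 in control (63.2%, against 67.8% of all genes tested) and 10 in Cd offspring (52.6%, against 69.0%). Across members, the change of a member and that of its host had an r of 0.88 for 19 members in 12 lncRNA hosts and 0.03 for 83 members in 63 protein-coding hosts in control offspring. In Cd offspring the values were 0.75 and 0.24. Member and host were measured in the same libraries, several members share a host, and a read from an unspliced host transcript could count for the member, so these are descriptions without a test. Of the 19 control calls, 7 lay in a host that was also called in the same direction, and of the 23 Cd calls 6. Among all 102 members with a host, 22 lay in a called host in each exposure. Of these 22, 15 were not called themselves in control offspring and 16 in Cd offspring. Members in ribosomal protein genes had a median of 0.46 in control offspring (31 members), while their 22 hosts had a median of -0.36. In Cd offspring the medians were 0.31 and 0.40.

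**Figure D4:**
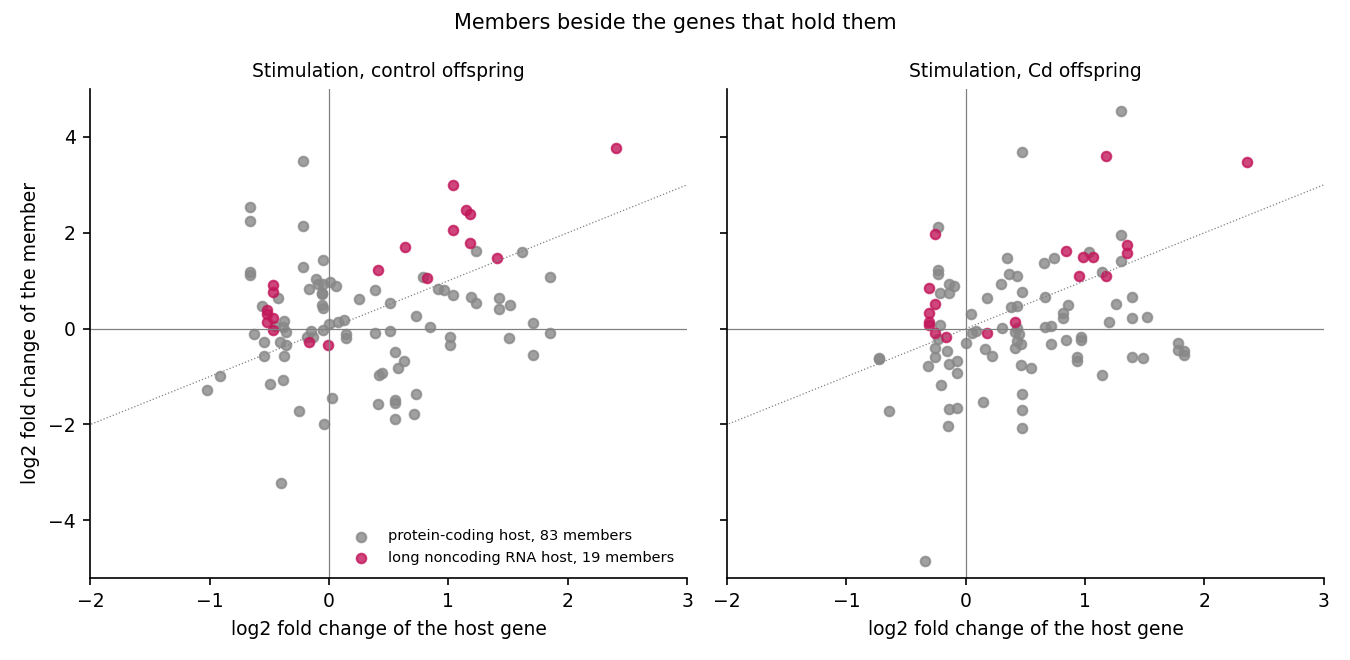
Log2 fold change with stimulation of the host gene (horizontal) against that of the member inside it (vertical) for the 102 members with a host, in control and Cd offspring, with lncRNA and protein-coding hosts in different colours. Members in lncRNA hosts lie along a rising line (r 0.88 and 0.75), and those in protein-coding hosts do not (r 0.03 and 0.24).

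Cd offspring were compared with control offspring first in unstimulated cells, the comparison that asks for an effect of parental exposure at rest. By limma, 0 of the 109 members were called, against 0.896% of all genes tested. At an unadjusted p under 0.05 there were 28 members, 5 Snora, 21 Snord and 2 Scarna, which is 25.7%, against 13.9% of all genes tested and 24.0% of the other genes of the length range. By voom 0 members were called and 12 had an unadjusted p under 0.05 (11.0%, against 14.5% of all genes tested). The libraries did not overlap for 16 members higher and 26 lower in Cd offspring, against 42.3% of all genes tested. The 16 include Snord61, a member only through its reads in unstimulated Cd cells. Its higher level there follows from the rule that picked it and is not taken as a difference. The shares at an unadjusted p were likewise taken over all members, Snord61 included. The lowest adjusted p was that of Scarna3a (1.03, adjusted p 0.0874), followed by Snord88a (-1.28, adjusted p 0.0928), with 2 of 2 libraries in the given direction for each. Median log2 fold changes were 0.03 for Snora, -0.04 for Snord and 0.41 for Scarna members, beside 0.01 for all genes and 0.25 for other genes of the length range. Among members with at least 10 reads, Snora19 had the largest increase. Snora19, which has an identical copy elsewhere, measured 10.9 and 4.38 RPKM in unstimulated control and 14.7 and 22.6 in unstimulated Cd cells, the Cd libraries being higher (1.38, SE 0.44, adjusted p 0.249), with 2.03 and 0.73 without unstimulated control replicate 6 and 7. The largest decreases were those of Snord32a (-1.44, SE 0.36, adjusted p 0.166, with -2.07 and -0.81 without unstimulated Cd replicate 6 and 7) and Snord37 (-1.28, SE 0.43, adjusted p 0.273), and Scarna17 was at -1.14 (SE 0.27, adjusted p 0.148). The 22 ribosomal protein hosts had a median of -0.43 with 4 called lower, while the 31 members inside them had a median of -0.01. With 2 libraries against 2, the smallest p of a two-sided exact permutation test is 0.333, so the tests rest on the spread pooled over genes and groups. A block by replicate number gave 1 call among the members, lower in Cd offspring, and 76 over all genes tested. Some members were called when any 1 unstimulated library was left out, and the count over all genes tested changed as well. A lone library then stood for its group.

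In stimulated cells, limma called 0 members between Cd and control offspring, as well as 0% of all genes tested. At an unadjusted p under 0.05 there were 13 members (11.9%), against 3.28% of all genes tested and 13.9% of the other genes of the length range. Voom called 0, with 4 at an unadjusted p under 0.05 (3.67%, against 3.59% of all genes tested). The libraries did not overlap for 11 members higher and 27 lower in Cd offspring, against 36.7% of all genes tested. Of 33 Snora members, 26 had a log2 fold change below 0, against 6817 of the 12605 genes tested. For 10 of the 33 the libraries did not overlap, 10 lower and 0 higher, against 36.7% of all genes tested in either direction. Medians were -0.18 for Snora, -0.13 for Snord and -0.21 for Scarna members, beside -0.01 for all genes tested and -0.02 for other genes of the length range. The Snora median was -0.0434 without stimulated Cd replicate 7 and -0.22 without stimulated control replicate 6, the ends of its range on leaving out 1 library. The share of reads on rRNA genes was highest in stimulated Cd cells (5.36 and 6%, against 4.04 to 5.16% in the other libraries). The log2 fold changes of Rn18s (0.34) and Rn45s (0.25) in this comparison were not called, and voom gave an unadjusted p under 0.05 for both. Whether the Snora values depend on that share was not tested. Scarna3a had the lowest adjusted p (-1.24, adjusted p 0.43). Among members with at least 10 reads, the largest decreases were those of Snord47 (-0.995, SE 0.47, adjusted p 1) and Snord88c (-0.86, SE 0.31), and the largest increases those of Snord110 (0.75, SE 0.17, adjusted p 0.895) and Snord42b (0.75, SE 0.47). Without stimulated control replicate 6 the values were -0.57 for Snord47, -0.37 for Snord88c and 0.20 for Snord42b, and without replicate 7 they were -1.43, -1.36 and 1.30. For Snord47, in the lncRNA gene Gas5, levels were 60.4 and 33.2 RPKM in stimulated control and 24.5 and 20.5 in stimulated Cd cells. The Cd libraries were the lower ones, with a spread in control cells wider than the gap between the groups' nearest values.

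The difference between the stimulation responses of Cd and control offspring was called for 1 member, Scarna3a, against 0.357% of all genes tested. At an unadjusted p under 0.05 there were 15 members (13.8%), against 10.6% of all genes tested and 20.5% of the other genes of the length range, and by voom 6 (5.5%, against 11.6%). These shares too were taken over all members, Snord61 included. Scarna3a had a difference of -2.26 (SE 0.28, adjusted p 0.0329), opposite signs of response in the exposures, and 3 to 9 reads per library. It was called in 5 of 10 other settings, and not by voom. With a pseudocount of 1 the difference was -1.58. With a block by replicate number a different member was called, with a positive difference. The call ended without stimulated Cd replicate 6 (-2.36) or 7 (-2.17), unstimulated Cd replicate 6 (-2.14), stimulated control replicate 6 (-2.24) or 7 (-2.29), or unstimulated control replicate 6 (-2.002). The number of members called changed with the library left out, as did the count over all genes tested. Median differences were -0.16 for Snora, -0.05 for Snord and -0.02 for Scarna members, beside -0.01 for all genes tested and -0.24 for the other genes of the length range. For Snord104, which has no host, the levels were 44.9 and 51.3 RPKM in unstimulated control cells, 41.4 and 49.3 after stimulation, 38.8 and 26.0 in unstimulated Cd cells, and 54.8 and 56.4 after stimulation. It was lowest in unstimulated Cd and highest in stimulated Cd cells, while the control groups overlapped. Its responses were -0.09 and 0.81 (adjusted p 0.00479, below the 2-fold limit), with a difference of 0.89 (SE 0.25, adjusted p 0.276).

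The classes were also described by the sequence boxes that define them, on GENCODE M21 annotation of GRCm38/mm10. Box C (NTGATGA within the first 20 bases) was found in 40 of 67 Snord members (59.7%) and box D (CTGA within the last 20 bases) in 65 (97.0%). In 4018 other small RNA transcripts of at most 300 bases the shares were 0.149% and 7.12%. ACA within the last 6 bases was found in 31 of 33 Snora members (93.9%), against 7.84% of the other small RNA transcripts. Box H (ANANNA in the middle of the sequence) was found in 30 Snora members (90.9%), against 40.5% of the others. Of the 7 Scarna members with a sequence, 3 held boxes C and D and 4 held ACA. In the sequences given, capitals mark boxes C and D of C/D members and ACA of H/ACA members. Scarna3a and Scarna3b share 85.7% of their sequence.

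Snora28 lies at chr12:111540941-111541067 (plus strand) and Snora17 at chr2:26639190-26639321 (minus strand). Snord14c lies at chr9:40803583-40803668 and Snord14d at chr9:40803995-40804080, both on the plus strand. Snord52 lies at chr17:34950952-34951017 (minus strand) and Scarna3a at chr1:159340283-159340422 (plus strand).

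Snora28: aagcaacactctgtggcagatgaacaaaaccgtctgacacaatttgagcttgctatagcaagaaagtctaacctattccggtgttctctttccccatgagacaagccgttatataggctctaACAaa

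Snora17: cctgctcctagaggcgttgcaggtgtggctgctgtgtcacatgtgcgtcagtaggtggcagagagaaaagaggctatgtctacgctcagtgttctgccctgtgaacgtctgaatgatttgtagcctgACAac

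Snord14c: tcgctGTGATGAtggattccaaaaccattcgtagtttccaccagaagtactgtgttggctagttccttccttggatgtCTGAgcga

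Snord14d: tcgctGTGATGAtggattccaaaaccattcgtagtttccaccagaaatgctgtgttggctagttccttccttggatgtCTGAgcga

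Snord52: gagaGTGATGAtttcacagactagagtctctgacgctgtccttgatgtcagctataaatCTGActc

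Scarna3a: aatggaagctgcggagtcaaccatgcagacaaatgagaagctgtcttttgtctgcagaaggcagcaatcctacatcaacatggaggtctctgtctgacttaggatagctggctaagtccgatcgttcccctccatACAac

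Genes for proteins that bind these RNAs were set beside them. Over all genes tested, 11.5% were called higher with stimulation in control and 11.4% in Cd offspring, and 7.17% and 7.24% lower. Of 4 core proteins of C/D particles, 4 were called higher with stimulation in control offspring and 2 in Cd offspring, among them Nop58 (1.85 and 1.83), and Rrp9 of the U3 particle was called in both (1.31 and 1.48), while Nop56 (1.01 and 0.96) was called in control offspring alone (difference -0.05, adjusted p 0.887). Of 4 core proteins of H/ACA particles, 3 were called higher in control and 4 in Cd offspring, namely Nhp2 (1.995 and 2.11), Dkc1 (1.95 and 1.79), Gar1 (1.87 and 2.08) and, in Cd offspring, Nop10 (0.83 and 1.19, difference 0.36, adjusted p 0.265). Of 18 assembly and maturation factors, 7 were called higher in each exposure, with Naf1 changing most (2.57 and 2.38). Fbl was called lower in unstimulated Cd cells (-0.48, adjusted p 0.0185), where 0.896% of all genes tested were called. In that comparison limma had 3 of the 4 H/ACA core proteins at an unadjusted p under 0.05, all lower, and voom had 1. Among all genes tested the limma share was 13.9%. For the C/D proteins, the assembly and maturation factors and the other short structured RNAs, limma had 1, 2 and 1. Of 19 other short structured RNAs tested, Rnu7 was called lower in control offspring (-2.50, adjusted p 0.00764) and Rnu5g higher in Cd offspring (2.07, adjusted p 0.00967). The differences were 0.39 for Rnu7 (adjusted p 0.882) and 1.30 for Rnu5g (adjusted p 0.558). The list includes Rn7sk, the most abundant (-1.02, adjusted p 0.0344 and -0.73, adjusted p 0.101), Rnu73b (-0.23 and -0.39) and the U3 gene Rnu3a (-3.36, adjusted p 0.0862 and -1.84, adjusted p 0.311), the latter pair being C/D-type RNAs whose symbols fall outside the rule. In stimulated cells, limma and voom called 0 genes of these 4 lists between Cd and control offspring, with 3 at an unadjusted p under 0.05 by limma (3.28% of all genes tested) and 2 by voom (3.59%), all of them other short structured RNAs.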

How the data were processed

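RNA sequencing libraries of splenic CD4+ T cells were analysed, 8 in all, with 2 in each of the 4 groups of parental exposure (control or Cd) and stimulation (0 or 16 h). Alignment (Subread, mm10) and counting over RefSeq transcripts (featureCounts) were done by the authors, in versions that are not stated. The deposited values are on a log2 scale, as log2(RPKM + 1) + 0.0001, where RPKM is reads per kilobase of transcript and per 1000000 reads. The scale was read from the values, and RPKM was obtained by the back-transform. Whole reads, counted lengths and library totals of 15542732 to 25486791 reads were recovered from the steps between the values.

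A mean of 0.5 RPKM or more was required for testing, which 12605 genes met. Version 3.58.1 of limma, under R 4.3.3, took log2(RPKM + 0.1), gave each of the 4 groups a mean and moderated the variances by empirical Bayes along a trend. Contrasts of the means were tested, with the Benjamini-Hochberg adjustment made over every gene tested. For stimulation a call needed a change above 2-fold besides an adjusted p under 0.01, and Cd against control and the difference between the responses (an interaction contrast) needed an adjusted p under 0.05. Calling a gene means passing these limits. No replicate block was used in the fit reported. The pipeline was also tested on simulated data. Counting intervals are exact (Clopper-Pearson), and a group at 0 was given a floor of 3 reads over the group.

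Hosts were the RefSeq genes of GRCm38.p6 on the same strand whose span holds the member, and if there were several, the one with the highest mean RPKM. Sequences and copies come from GENCODE M21, with boxes searched on the sense strand. Genes named are the 6 members of each class (4 for Scarna) with the most reads, up to 8 called members per direction and comparison, and, for each comparison, the 2 largest increases and the 2 largest decreases among members with a mean of at least 10 reads per library, with their hosts. Examples from the protein and short RNA lists are those with the highest levels or the largest changes, and Rnu7, Rnu5g and Fbl because they were called. Snora47, Snora73b and Snord1b were named after their values were seen. Members and lists were chosen with earlier results of these data known.

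Alternatives tried were pseudocounts of 0.5 and 1, no filter, a mean RPKM of at least 1, a mean of at least 10 reads, median-of-ratios scaling and quantile normalization. Further ones were no trend in the prior, only the libraries of the comparison, voom on the recovered reads, and leaving out each library in turn. A replicate block was also tried, by number or by exposure and number together (such as Ctr6), neither of which is stated to be an animal. Tables and plots were made with Python 3.11.15, numpy 2.4.6, pandas 2.3.3, scipy 1.17.1 and matplotlib 3.10.9.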

Additional observations from a re-analysis of the deposited data

Results flagged for a closer look

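The response of Scarna3a to stimulation differed between the exposures, as an interaction contrast of -2.26 on the log2 scale (SE 0.28, adjusted p 0.0329 by limma). The gene was higher after stimulation in 2 of 2 control libraries and lower in 2 of 2 Cd libraries. It held 3 to 9 reads per library, and the call was lost by voom, without the trend, without the filter and with either replicate block. Its adjusted p over the other settings ranged from 0.0259 to 0.272. With a pseudocount of 1 the difference was -1.58. What lies behind the difference was not tested.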

How the results depend on the processing

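Calls for stimulation moved within 1.5 times under the 12 alternatives, between 14 and 25 members in control and between 18 and 24 in Cd offspring, and between 15 and 26 and between 17 and 24 on leaving out 1 library. For Cd against control in stimulated cells the count was 0 throughout. Deviations of replicate 6 from its group mean had r of -0.112 to 0.0635 between groups, and with a replicate block 1 member was called for Cd in unstimulated cells. The difference in response gave 0 calls without a filter, without the trend and by voom. It also gave 0 with a mean of at least 10 reads, a filter that Scarna3a did not pass. It gave 0 with the block by exposure and number together, and 1 with the block by number alone, a different member with a positive difference. Quantile normalization moved the median of all genes from 0.07 to -0.03 in control and from 0.05 to -0.04 in Cd offspring. Class medians moved by more than the SD between replicates (0.0421 for Snora and 0.0514 for Snord) in these cases. In control offspring, the Snora median was 0.39 with scaling by median of ratios, 0.42 with a pseudocount of 1 and 0.35 after quantile normalization, and the Snord median 0.30 with a mean RPKM of at least 1, 0.10 with scaling by median of ratios and 0.0804 when quantile-normalized. In Cd offspring, the Snora median was 0.18 with a mean RPKM of at least 1, with a mean of at least 10 reads and with scaling by median of ratios, and 0.11 when quantile-normalized, and the Snord median 0.0707 with either filter and 0.0020 after quantile normalization. The cause was not tested. Leaving out 1 library gave Snora medians of 0.32 to 0.61 and Snord medians of 0.0752 to 0.28 for stimulation in control offspring, 0.0342 to 0.29 and 0.0856 to 0.21 in Cd offspring, -0.0459 to 0.14 and -0.12 to 0.0296 for Cd in unstimulated cells, -0.22 to -0.0434 and -0.15 to -0.0607 in stimulated cells, and -0.22 to -0.0854 and -0.0920 to 0.0394 for the difference. Members called ranged from 0 to 4 for Cd in unstimulated cells and from 0 to 3 for the difference. With 1 library left out, the lone library of its group was assumed to vary like the other groups.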
